A study of Mus musculus with 12 samples.

Results

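The 9 genes described here encode transcription factors that set and hold the identity of the hepatocyte: Hnf4a, Cebpa, Cebpb, Foxa1, Foxa2, Foxa3, Prox1, Onecut1 and Nr5a2. They were chosen by name, with earlier results of these data known. All 9 were found among the 36528 gene IDs of the series and among the 16032 genes that passed the filter on low counts. Whole livers of 12 mice gave 1 RNA library each. In 6 mice the injections into the peritoneum held CCl4 (carbon tetrachloride), which the P450 enzymes of hepatocytes activate to a damaging radical, and in the other 6 they held the corn oil vehicle alone. Both groups had 3 injections a week over 6 weeks. No strain, genotype, sex, age or CCl4 dose is given in the sources used here. Levels are CPM, counts per 1000000 after scaling of the libraries, and "passed" means an adjusted p under 0.05 in edgeR's quasi-likelihood test over all tested genes. Whole liver mixes cell types, so fewer hepatocytes and less RNA per hepatocyte cannot be told apart.

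Hepatocyte identity rests on a small set of factors that bind each other's genes and the same enhancers of liver genes. FOXA proteins open chromatin as pioneer factors, the nuclear receptors HNF4A and NR5A2 and the C/EBP proteins then activate metabolic and secretory genes, and ONECUT1 (HNF6) and PROX1 act in the same network from liver bud formation onward. In the adult liver HNF4A is the central activator, and C/EBP alpha is linked to the resting, metabolic state while C/EBP beta is linked to the acute phase response and regeneration.

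After CCl4 5 of the 9 factors fell and none rose, against 18.4% of all tested genes that fell and 20.6% that rose (39.0% in either direction). The count depends on the fit: 3 factors fell without CCl4 replicate 2 or without oil replicate 3, 2 with total counts alone and 7 with DESeq2, and Foxa3 rose in 8 of the 23 fits made. Hnf4a and Foxa1 fell most clearly, and all 6 CCl4 livers lay below all 6 oil livers for these 2 genes, as they did for 8.03% of all tested genes. Nr5a2, Onecut1 and Cebpa also fell, the last only just past the threshold. Cebpb and Prox1 were lower and Foxa3 higher by sizes close to that of Nr5a2, and missed the threshold narrowly. Foxa2 stood at similar levels in both groups. The median log2 fold change of the 9 genes was -0.58, beside 0.01 over all tested genes.

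**Figure D1:**
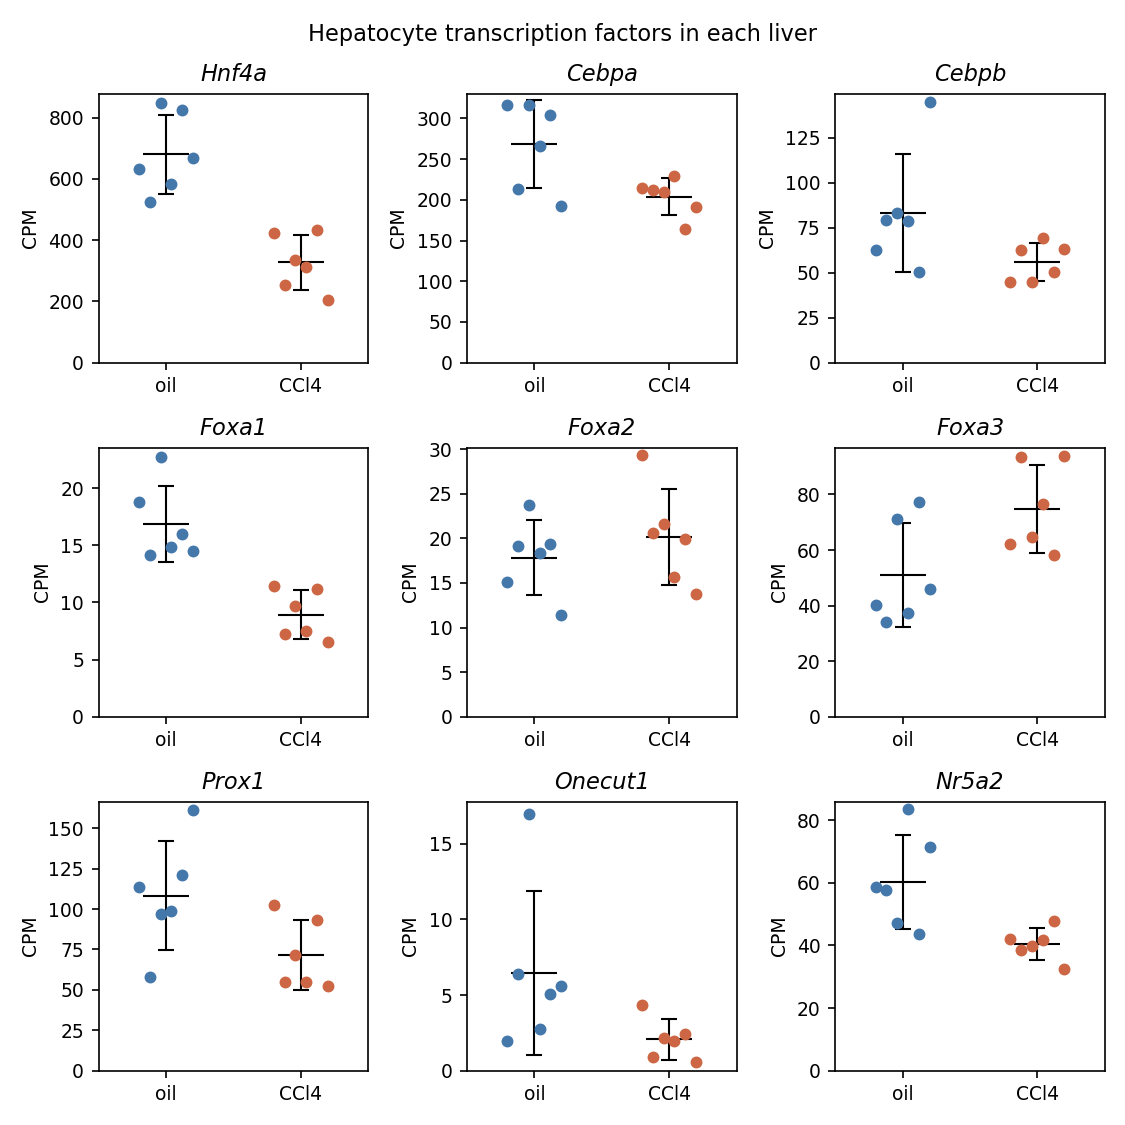
CPM of the 9 factors in each liver (points; oil on the left and CCl4 on the right of each panel), with the mean and SD of 6 livers, on linear axes that start at 0. Hnf4a and Foxa1 are the panels in which the groups do not overlap, and single high oil livers stand out for Cebpb (144.7 CPM) and Onecut1 (17.0 CPM).

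Values of the whole series that touch these genes were as follows. Total counts ran from 43027778 to 70375852 per library. The libraries differed in how strongly they favoured long transcripts: the slope of log2 CPM on log2 exonic length ran from -0.37 to 0.16 in CCl4 and from -0.15 to 0.25 in oil. Hepatocyte markers were abundant in all 12 livers, with a sum of 11 markers between 129058 and 183271 CPM in oil and between 146422 and 200672 CPM in CCl4. Of these 11 markers 2 rose and 3 fell, beside 20.6% of all tested genes that rose and 18.4% that fell. Alb (albumin) stood at 78023 ± 14782 CPM in the oil group and 77063 ± 15611 CPM in the CCl4 group (SD, n = 6 each).

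Hnf4a encodes the nuclear receptor that occupies the regulatory regions of a large share of the genes active in hepatocytes. RefSeq (GRCm38.p6) gives it 2 start sites on chromosome 2, at 163506857 and 163547155, which lie 40298 bases apart. The distal start is the one known from pancreas, gut and fetal liver, and the proximal start is the one known from adult hepatocytes; counts per gene do not separate them. The 250 bases upstream of both starts are shown because these are the start sites annotated for the gene; which of them was used in these livers was not measured, and capitals mark an ATTGAT match (the core of the ONECUT motif, read on the opposite strand).
Hnf4a distal start, chr2:163506607-163506856, plus strand: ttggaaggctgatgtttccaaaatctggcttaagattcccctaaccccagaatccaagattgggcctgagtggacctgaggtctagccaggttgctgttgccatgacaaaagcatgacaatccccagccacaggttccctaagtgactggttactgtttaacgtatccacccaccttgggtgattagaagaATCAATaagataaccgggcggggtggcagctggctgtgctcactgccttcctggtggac
Hnf4a proximal start, chr2:163546905-163547154, plus strand: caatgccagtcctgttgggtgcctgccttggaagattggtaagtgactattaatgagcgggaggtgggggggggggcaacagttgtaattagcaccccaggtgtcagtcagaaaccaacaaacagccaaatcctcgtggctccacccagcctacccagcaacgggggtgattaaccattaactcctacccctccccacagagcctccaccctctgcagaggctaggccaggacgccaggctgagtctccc

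In the oil livers Hnf4a (gene ID 15378, chromosome 2, 163506811 to 163572907) ran from 525.4 to 847.1 CPM with a median of 651.9. In the CCl4 livers it ran from 206.0 to 434.5 CPM with a median of 323.2. The highest CCl4 liver thus lay under the lowest oil liver. The mean went from 681 ± 130 to 328 ± 90.7 CPM (SD, n = 6 each), which is 2.08-fold less (log2 fold change -1.05 ± 0.19 SE, edgeR adjusted p = 0.000681). Between 11251 and 43411 reads per library stand behind these values, so counting error is small beside the spread between livers. Hnf4a passed in all 23 fits made, with log2 fold changes between -1.18 and -0.79.

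Hnf4aos, a long non-coding gene on the opposite strand (gene ID 68314, chromosome 2, 163493804 to 163541721), spans the distal start of Hnf4a and has its 5′ end 5434 bases before the proximal start. It was examined because it overlaps Hnf4a, and is named after its values were seen. In oil it ran from 5.83 to 17.6 CPM with a median of 9.001, and in CCl4 from 0.821 to 2.20 CPM with a median of 1.20. No CCl4 liver reached the lowest oil liver. Its mean was 7.03-fold lower after CCl4 (log2 fold change -2.81 ± 0.32 SE, edgeR adjusted p = 1.21e-05). The exons of the 2 genes share 0 bases in GENCODE, but whether counting used strand is not stated in those sources, and reads from introns of Hnf4a and from Hnf4aos cannot be told apart. Hnf4aos was at most 2.13% of the CPM of Hnf4a in any liver.

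**Figure D2:**
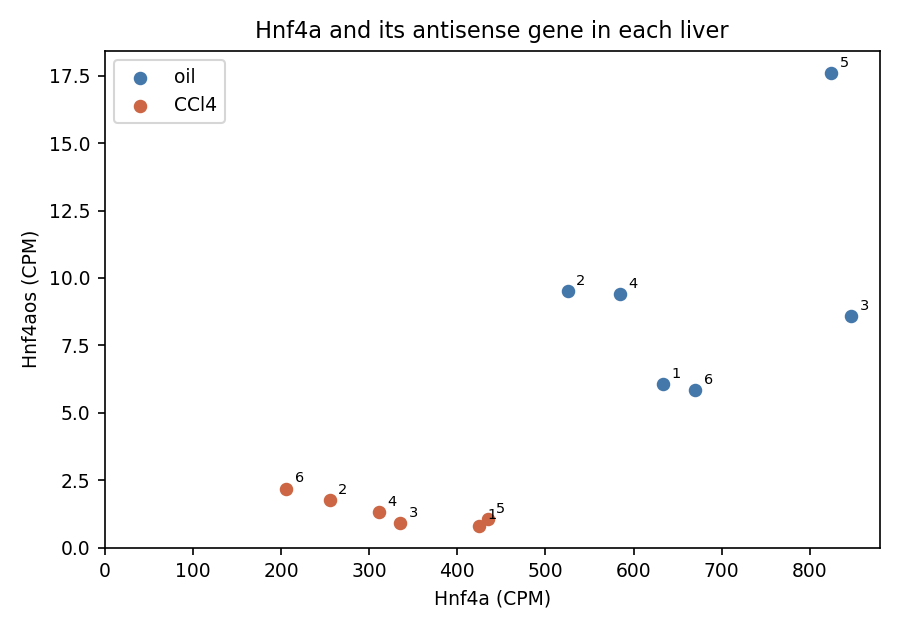
CPM of Hnf4aos (vertical axis) against CPM of Hnf4a (horizontal axis) in each of the 12 livers, on linear axes from 0, with the replicate number beside each point. The CCl4 livers reach at most 434.5 CPM of Hnf4a and 2.20 CPM of Hnf4aos, and the oil livers lie above both values.

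The 3 FOXA genes encode forkhead proteins with closely related DNA-binding domains, and they did not move together. Foxa1 (gene ID 15375, chromosome 12, 57540628 to 57548029) ran from 14.2 to 22.7 CPM in oil with a median of 15.4, and from 6.57 to 11.4 CPM in CCl4 with a median of 8.57. The groups did not overlap. Its mean fell 1.89-fold, from 16.8 ± 3.34 to 8.92 ± 2.12 CPM (SD, n = 6 each; log2 fold change -0.92 ± 0.18 SE, edgeR adjusted p = 0.00104), and it passed in all 23 fits. The protein-coding gene Ttc6 overlaps the Foxa1 span on the opposite strand over 1326 bases, with 0 shared exon bases in GENCODE; it was at 0.301 ± 0.0795 CPM in oil and 0.0906 ± 0.0649 CPM in CCl4. Ttc6 reads were therefore few beside those of Foxa1.

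The promoters of Foxa1 and of the first start of Foxa2 are shown because these are the 2 FOXA windows that hold one of the searched motifs. The Foxa1 start used, 57546111, lies inside the gene span given above and not at its 5′ end. Capitals mark a TGTTTAC match (FOXA, read on the opposite strand) in Foxa1 at position -141 and an ATTGAT match (ONECUT core) in Foxa2 at position -213, counted back from the start site.
Foxa1, chr12:57546112-57546361, minus strand: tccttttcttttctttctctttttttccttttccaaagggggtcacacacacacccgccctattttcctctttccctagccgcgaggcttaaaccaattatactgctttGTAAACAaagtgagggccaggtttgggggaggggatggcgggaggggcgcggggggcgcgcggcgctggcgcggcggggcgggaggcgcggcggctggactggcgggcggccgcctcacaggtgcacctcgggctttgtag
Foxa2, first start, chr2:148046970-148047219, minus strand: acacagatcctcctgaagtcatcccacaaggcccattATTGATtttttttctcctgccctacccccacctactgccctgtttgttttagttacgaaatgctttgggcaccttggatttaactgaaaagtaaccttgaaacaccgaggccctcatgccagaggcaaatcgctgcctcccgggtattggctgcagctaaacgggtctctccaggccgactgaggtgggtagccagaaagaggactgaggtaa

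Foxa2 (gene ID 15376, chromosome 2, 148042877 to 148046969), which is also known for its part in the fasting response and bile acid handling, ran from 11.4 to 23.7 CPM in oil with a median of 18.7, and from 13.8 to 29.3 CPM in CCl4 with a median of 20.3. The ranges overlapped, with 1 CCl4 liver above the highest oil liver. The means were 17.8 ± 4.204 and 20.2 ± 5.41 CPM, and the difference was within the spread between livers (log2 fold change 0.18 ± 0.20 SE, edgeR adjusted p = 0.498). It passed in 0 of the 23 fits, and its highest CCl4 value came from replicate 1, without which the log2 fold change was 0.02.

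Foxa3 (gene ID 15377, chromosome 7, 19013283 to 19023539), the FOXA gene most expressed in adult liver, ran from 34.0 to 77.4 CPM in oil with a median of 42.98. In CCl4 it ran from 58.3 to 93.8 CPM with a median of 70.6. All 6 CCl4 livers lay above the oil median, and 2 of them lay above every oil liver. The means were 51.0 ± 18.6 and 74.9 ± 15.8 CPM, and the difference did not pass (log2 fold change 0.55 ± 0.22 SE, edgeR adjusted p = 0.0592). It passed in 8 of the 23 fits, among them upper-quartile scaling, total counts alone, limma-voom and the fits without CCl4 replicate 5 (0.0444), oil replicate 3 (0.0347) or oil replicate 5 (0.0137; adjusted p each). Adding each library's length slope to the model gave a log2 fold change of 0.28 (adjusted p = 0.279); the exonic length of Foxa3 is 2037 bases.

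Within a liver the balance of the FOXA genes shifted, a measure that does not depend on the scaling of libraries. It can depend on how strongly a library favoured long transcripts: exonic length is 3191 bases for Foxa1, 2180 for Foxa2 and 2037 for Foxa3. The count of Foxa1 was 0.207 to 0.469 times that of Foxa3 in the oil livers and 0.0701 to 0.192 times in the CCl4 livers, without overlap. The mean ratio was 2.89-fold lower after CCl4 (log2 difference -1.53, exact two-sided permutation p = 0.00216, adjusted p = 0.00649 over 6 ratios), and 0.00216 is the smallest p that 6 against 6 livers can give. The ratio of Foxa1 to Foxa2 was 0.740 to 1.27 in oil and 0.349 to 0.561 in CCl4, again without overlap, and its mean was 2.14-fold lower (exact two-sided permutation p = 0.00216, adjusted p = 0.00649). Foxa1 thus fell relative to both other members of its family. Both differences also passed with the length trend of each library removed. The ratio of Foxa2 to Foxa3 ran from 0.248 to 0.562 in oil and from 0.147 to 0.471 in CCl4, and did not pass (exact two-sided permutation p = 0.216, adjusted p = 0.260).

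**Figure D3:**
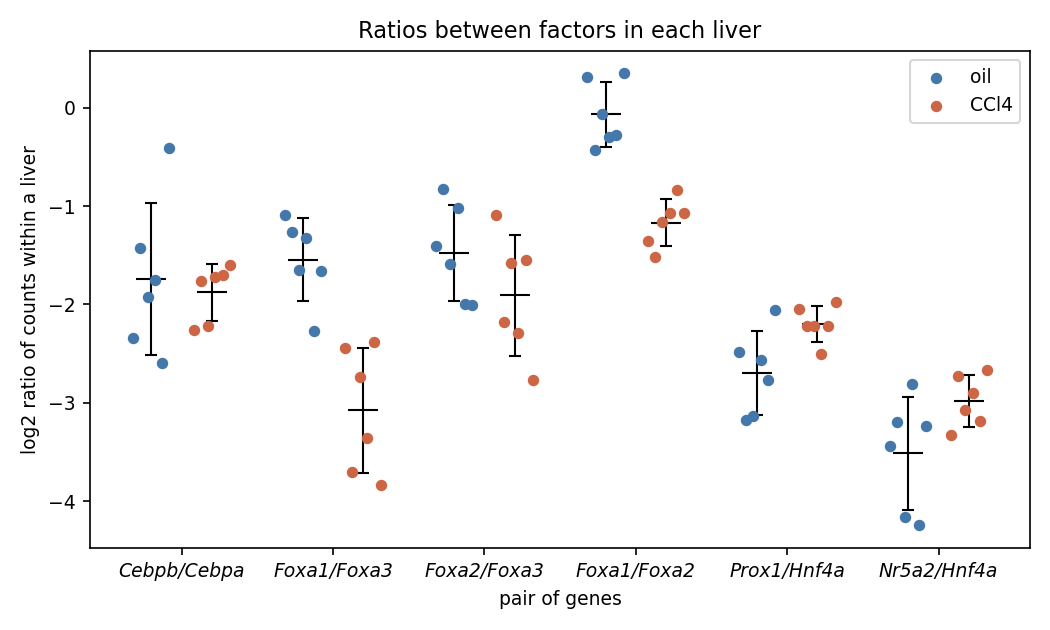
Log2 ratio of read counts of 2 factors within each liver (points; oil in blue, CCl4 in orange), with the mean and SD of 6 livers. The groups do not overlap for Foxa1/Foxa3 (means -1.54 in oil and -3.08 in CCl4) and Foxa1/Foxa2 (means -0.07 and -1.17), and overlap for the other 4 ratios.

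The C/EBP factors are basic leucine zipper proteins that bind the same sites. Cebpa (gene ID 12606, chromosome 7, 35119293 to 35121928) ran from 192.6 to 317.0 CPM in oil with a median of 285.4, and from 164.5 to 229.8 CPM in CCl4 with a median of 210.9. All 6 CCl4 livers lay under the oil median, but 4 of them overlapped the oil range. The mean fell 1.32-fold, from 268 ± 54.3 to 204 ± 22.8 CPM (log2 fold change -0.40 ± 0.15 SE, edgeR adjusted p = 0.0445). The call is fragile: Cebpa passed in 9 of the 23 fits, and not without CCl4 replicate 2, 3, 5 or 6 or without oil replicate 1, 3, 4 or 5 (adjusted p = 0.0561 to 0.0964). With total counts alone its log2 fold change was -0.15 (adjusted p = 0.449).

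Cebpb (gene ID 12608, chromosome 2, 167688915 to 167690432) ran from 50.5 to 144.7 CPM in oil with a median of 79.3, and from 44.8 to 69.5 CPM in CCl4 with a median of 56.5. All 6 CCl4 livers lay below the oil median, and oil replicate 6 stood far above the other 5 oil livers. The means were 83.3 ± 32.6 and 55.9 ± 10.5 CPM, a difference that did not pass (log2 fold change -0.57 ± 0.22 SE, edgeR adjusted p = 0.0515). Leaving out oil replicate 5 (0.0153), oil replicate 1 (0.0403) or CCl4 replicate 4 (0.0473) took the adjusted p past the threshold. Without oil replicate 6 the log2 fold change was -0.35 (adjusted p = 0.125). The ratio of Cebpb to Cebpa, often used to describe the regenerating liver, ran from 0.166 to 0.751 in oil and from 0.209 to 0.331 in CCl4 and did not differ past the threshold (log2 difference -0.14, exact two-sided permutation p = 0.745, adjusted p = 0.745). Myeloid cells also express both genes. Markers of macrophages and monocytes rose in 10 of 12 members, against 20.6% of all tested genes. Their sum was between 235 and 322 CPM in oil and between 542 and 812 CPM in CCl4. The part of these cells in the C/EBP values was not tested.

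Nr5a2 (LRH-1; gene ID 26424, chromosome 1, 136842562 to 136960448), a nuclear receptor that controls bile acid and sterol genes, ran from 43.5 to 83.4 CPM in oil with a median of 58.0. In CCl4 it ran from 32.3 to 47.7 CPM with a median of 40.8. Of the 6 CCl4 livers 5 lay below the lowest oil liver, and the overlap came from CCl4 replicate 5. The mean fell 1.49-fold, from 60.3 ± 15.0 to 40.4 ± 5.03 CPM (log2 fold change -0.58 ± 0.16 SE, edgeR adjusted p = 0.0113). It passed in 22 of the 23 fits, the exception being total counts alone, where the log2 fold change was -0.32 (adjusted p = 0.146). Acinar cells of the pancreas express Nr5a2, and the 10 acinar markers summed to 394 CPM in CCl4 replicate 5, against 11.6 to 118 CPM in the other 5 CCl4 livers and 16.4 to 61.5 CPM in oil. Without that library the log2 fold change of Nr5a2 was -0.65 (adjusted p = 0.00779). With each library's length slope in the model it was -0.40 (adjusted p = 0.0361). The part of acinar cells in the Nr5a2 values was not tested.

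Prox1 (gene ID 19130, chromosome 1, 190118035 to 190170827), a homeobox factor of hepatoblasts and hepatocytes that also marks lymphatic endothelium and can restrain HNF4A and NR5A2, ran from 58.1 to 161.0 CPM in oil with a median of 106.1. In CCl4 it ran from 52.3 to 102.8 CPM with a median of 63.3. The ranges overlapped, and 3 CCl4 livers lay below every oil liver. The means were 108 ± 33.8 and 71.6 ± 21.8 CPM, a difference that did not pass (log2 fold change -0.60 ± 0.23 SE, edgeR adjusted p = 0.0577). Leaving out CCl4 replicate 1 (0.0169), CCl4 replicate 5 (0.0261) or oil replicate 2 (0.0176) took the adjusted p past the threshold. A model that held each library's length slope gave a log2 fold change of -0.35 (adjusted p = 0.188), and at 8390 bases Prox1 has the longest exonic length of the 9 genes.

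Relative to Hnf4a, Prox1 and Nr5a2 were not lower. The ratio of Prox1 to Hnf4a ran from 0.111 to 0.240 in oil and from 0.176 to 0.254 in CCl4, a 1.41-fold higher mean that did not pass after adjustment (log2 difference 0.50, exact two-sided permutation p = 0.0281, adjusted p = 0.0563). With the length trend of each library removed the log2 difference was 0.71 (adjusted p = 0.00433). The ratio of Nr5a2 to Hnf4a ran from 0.0528 to 0.143 in oil and from 0.0995 to 0.157 in CCl4 (log2 difference 0.53, exact two-sided permutation p = 0.0649, adjusted p = 0.0974). Prox1os, a non-coding gene that starts across the Prox1 start on the opposite strand and shares 133 exon bases with it, was at 8.997 ± 2.35 CPM in oil and 8.07 ± 1.59 CPM in CCl4. Its log2 fold change was -0.16 ± 0.18 SE (edgeR adjusted p = 0.510). Lymphatic endothelial markers rose in 3 of 6 tested members, against 20.6% of all tested genes. Their sums were 47.2 to 88.6 CPM in oil and 80.0 to 178 CPM in CCl4, and Ccl21a had no counts in any library. Reln, which is also on the list of stellate cell markers, made up most of the sum, with means of 42.1 and 82.7 CPM. Lyve1 and Mmrn1 rose 1.68-fold and 1.66-fold, and Pdpn (adjusted p = 0.693), Flt4 (0.489) and Sema3d (0.485) did not pass. The part of lymphatic cells in the Prox1 values was not tested.

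Onecut1 (HNF6; gene ID 15379, chromosome 9, 74861921 to 74889648), a factor of hepatocytes and bile duct cells, was the least abundant of the 9. It ran from 1.98 to 17.0 CPM in oil with a median of 5.33, and from 0.567 to 4.36 CPM in CCl4 with a median of 2.07. All 6 CCl4 livers lay under the oil median, and 3 of them lay below every oil liver. The mean fell 3.13-fold, from 6.47 ± 5.42 to 2.06 ± 1.35 CPM, with the widest error of the set (log2 fold change -1.64 ± 0.53 SE, edgeR adjusted p = 0.0250). As few as 31 and at most 725 reads per library stand behind these values. Oil replicate 3, at 17.0 CPM, weighs heavily: without it the log2 fold change was -1.09 (adjusted p = 0.0830). The call was also lost without CCl4 replicate 2 (adjusted p = 0.0533). It was lost again in the model that held each library's length slope (log2 fold change -1.21, adjusted p = 0.108). Cholangiocyte markers summed to 113 to 150 CPM in oil and 241 to 305 CPM in CCl4. Of the 9 tested members 4 rose, against 20.6% of all tested genes. The members that rose were Spp1, which macrophages also express, from 29.2 ± 4.96 to 149 ± 24.3 CPM, Tspan8 (3.68-fold), Epcam (2.78-fold) and Anxa4 (1.42-fold). For each of these 4 genes all 6 CCl4 livers lay above all 6 oil livers, as they did for 1920 of the 16032 tested genes. The 5 that did not pass were Krt19 (3.90 ± 1.69 and 4.04 ± 0.673 CPM), Krt7, Krt23, Sox9 and Slc4a2. The part of bile duct cells in the Onecut1 values was not tested.

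**Figure D4:**
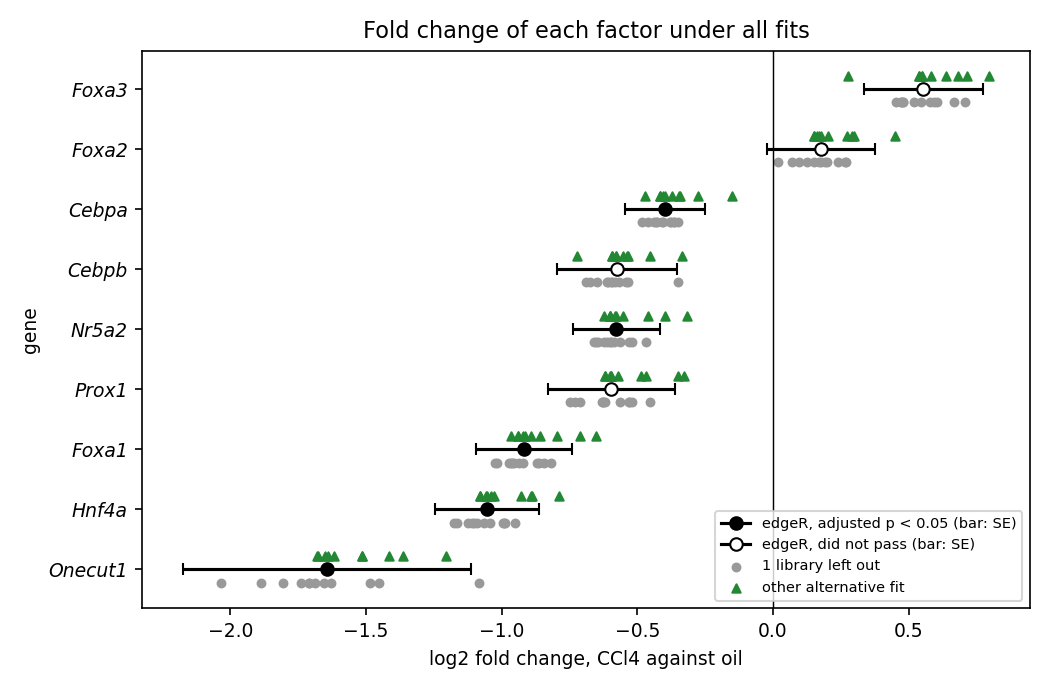
Log2 fold change, CCl4 against oil, of the 9 factors under 23 fits: the edgeR fit (circles with SE, filled where adjusted p was under 0.05), fits with 1 library left out (grey) and the other alternatives (green triangles). Every gene kept its sign in all 23 fits, with Foxa3 and Foxa2 right of 0 and the other 7 left of it.

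Genes were compared with each other as CPM per kilobase of exonic length. This scale does not remove the differences between libraries in how strongly they favoured long transcripts. Exonic length is 4362 bases for Hnf4a and 2636 for Cebpa. In oil Hnf4a led at 156 ± 29.7, above Cebpa at 102 ± 20.6 in 6 of 6 livers and without overlap. In CCl4 these 2 genes stood level, with Cebpa at 77.2 ± 8.66 and Hnf4a at 75.1 ± 20.8 CPM per kilobase and overlapping ranges. Cebpb and Foxa3 followed. In oil Cebpb was at 55.4 ± 21.7 and Foxa3 at 25.0 ± 9.13 CPM per kilobase, Cebpb being higher in 5 of 6 livers, whereas in CCl4 they were at 37.2 ± 6.98 and 36.8 ± 7.78 CPM per kilobase, Cebpb being higher in 2 of 6. Prox1, Nr5a2 and Foxa2 came next with overlapping ranges, between 8.19 and 12.9 CPM per kilobase in oil and between 7.25 and 9.25 in CCl4 (group means). In oil the range of Prox1 also overlapped that of Foxa3, and the range of Foxa2 overlapped that of Foxa1. The range of Cebpa overlapped that of Cebpb in oil as well, with Cebpa higher in 5 of 6 livers. Foxa1, at 5.28 ± 1.05 in oil and 2.79 ± 0.66 in CCl4, and Onecut1, at 1.63 ± 1.37 and 0.521 ± 0.341 CPM per kilobase, came last in both groups. The ranges of Foxa1 and Onecut1 did not overlap each other in either group.

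Close relatives of the 9 factors were looked at from a list of 9 genes, of which 7 passed the filter. Ddit3, the C/EBP family member of the stress response also known as CHOP, went up 3.49-fold, from 15.4 ± 4.47 in oil to 53.6 ± 8.42 CPM (edgeR adjusted p = 7.66e-06). Hnf4g, a paralogue of Hnf4a better known from gut, was at 0.101 ± 0.0634 CPM in oil and 0.562 ± 0.205 CPM in CCl4, far under the level of Hnf4a. At its oil level it could pass the filter on low counts only through CCl4 livers, so its call as risen carries little weight. Cebpd and Cebpe fell 1.56-fold and 1.43-fold. Onecut2, also a bile duct and hepatocyte factor, fell 1.60-fold from 97.3 ± 21.3 to 60.8 ± 24.2 CPM (edgeR adjusted p = 0.0368). In all, 2 of the 7 relatives rose, Hnf4g among them, and 3 fell, against 20.6% and 18.4% of all tested genes.

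Of 26 other liver-enriched factors 16 fell, 1 rose and 9 did not pass, with a median log2 fold change of -0.68, beside 18.4% of all tested genes that fell and 20.6% that rose (median 0.01). Nr1i2, the xenobiotic receptor PXR, fell 1.97-fold from 85.2 ± 14.3 to 43.2 ± 2.19 CPM (edgeR adjusted p = 3.10e-05). Atf5 was the factor that rose: it was at 241 ± 51.8 CPM in oil and 335 ± 43.2 CPM in CCl4, 1.39-fold higher.

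**Figure D5:**
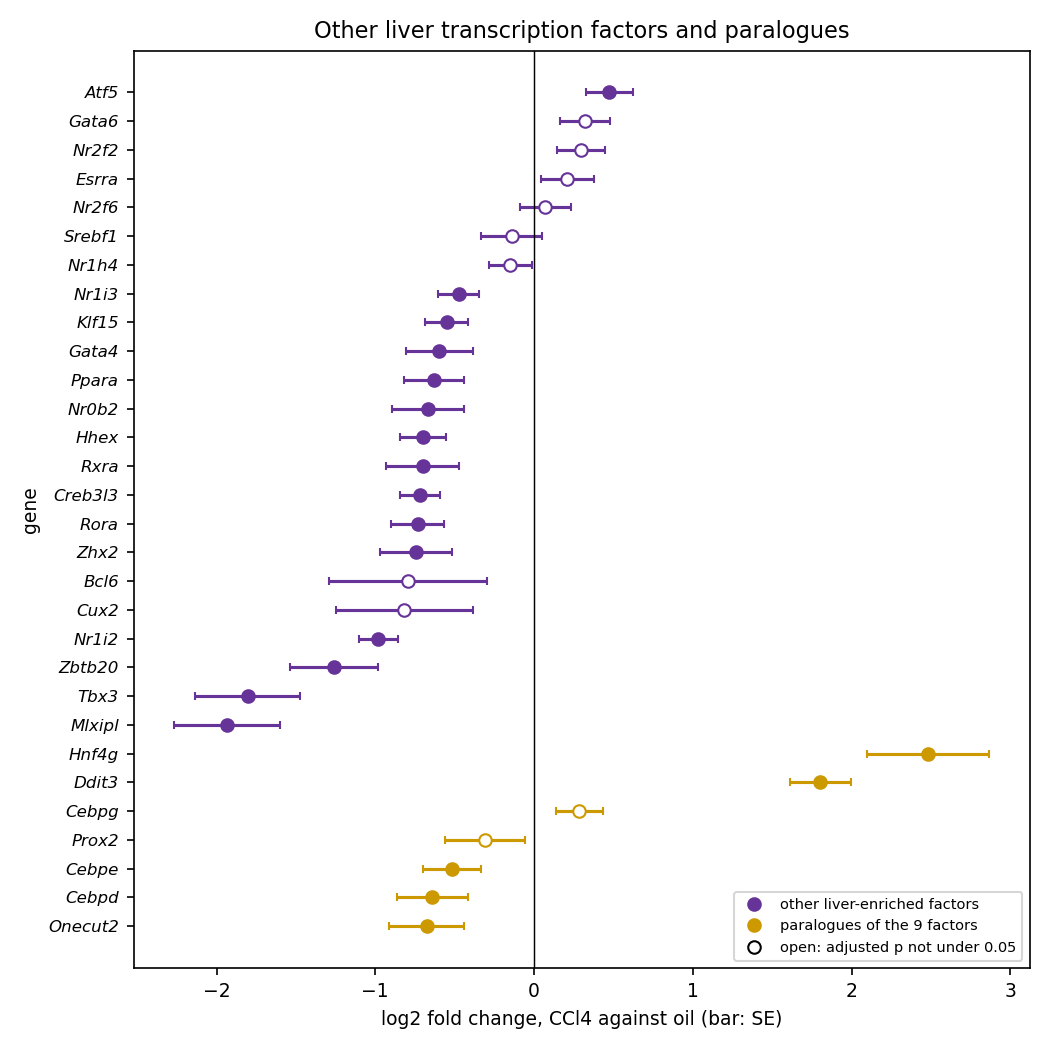
Log2 fold change with SE, CCl4 against oil, of 23 of the 26 other liver-enriched transcription factors (purple) and 7 tested paralogues of the 9 factors (gold); filled circles had an adjusted p under 0.05. Most purple points lie left of 0, Atf5 is the filled purple point on the right, and Hnf4g and Ddit3 are the rightmost gold points.

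Genes listed by hand under each factor, with earlier results of these data known, were counted next. The lists overlap, since 1 gene can have several of these factors at its promoter. G6pc, for example, is on the lists of HNF4A, C/EBP alpha, FOXA and ONECUT1. For each list the shares over all tested genes are 18.4% fallen and 20.6% risen. HNF4A targets fell in 12 of 20 members and rose in 1 (median log2 fold change -0.64). Cyp8b1, the bile acid 12-hydroxylase, fell 26.6-fold and G6pc, glucose-6-phosphatase, 8.10-fold, while Apoc3 rose 1.68-fold. Targets of C/EBP alpha fell in 7 of 10 and rose in 0 (median -0.63), with Tat, tyrosine aminotransferase, 3.06-fold lower. Alb, shared by the lists of C/EBP alpha and FOXA, did not pass (edgeR adjusted p = 0.939).

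FOXA targets fell in 6 of 10 and rose in 1 (median -0.94); the member that rose was Afp, alpha-fetoprotein, from 1.65 ± 0.363 to 13.2 ± 6.70 CPM. Targets of NR5A2 fell in 7 of 10 and rose in 1, again Afp (median -0.88). Abcg8, a sterol transporter, fell 2.54-fold, whereas Cyp7a1, the rate-limiting enzyme of bile acid synthesis, was at 100.2 ± 43.5 and 74.0 ± 32.7 CPM and did not pass (edgeR adjusted p = 0.359). Of 7 genes listed under ONECUT1, among them Hnf4a and Foxa2, 3 fell and none rose (median -0.64). Hnf4a itself is 1 of these 3. Ttr, transthyretin, did not pass (edgeR adjusted p = 0.979). Of 10 acute phase genes listed under C/EBP beta, 2 rose, 1 fell and 7 did not pass (median -0.10), shares near those over all tested genes (20.6% rose and 18.4% fell). Lcn2, lipocalin 2, rose 5.68-fold and Hpx, hemopexin, 1.93-fold, and Crp fell 1.71-fold.

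Tested genes were searched for similar profiles, without the 9 factors, genes lacking a symbol and names of the LOC, Gm-number or Rik type. Among the genes searched, those whose log2 CPM profile over the 12 livers lay nearest to that of a factor were found by the mean absolute difference after centring each gene. For Hnf4a these were Vipr1 (0.126) and Cmtm4 (0.128), and for Foxa1 Cmtm4 (0.123) and Dnajb2 (0.125), so that Cmtm4 stood near both. For Nr5a2 they were Arl15 (0.104) and Cps1 (0.111), the first enzyme of the urea cycle. For Foxa3 they were Exosc6 and Ufsp1 (0.126 each), for Cebpa Ube2g1 (0.121) and Ccpg1os (0.125), and for Prox1 Pde4dip (0.151) and Palld (0.161). For Cebpb they were C9orf72 (0.178) and Slc15a4 (0.186), and for Foxa2 Zfp689 (0.162) and Tyw3 (0.176). Onecut1 had the most distant neighbours of the 9, Slc25a30 at 0.337 and Mir292 at 0.463. Mir292 was near the floor, with means of 0.254 CPM in oil and 0.0648 CPM in CCl4.

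The 9 factors have 14 RefSeq promoter windows of 300 bases (250 before and 50 after a start), which were searched on both strands for motifs of these families. The strict motifs CAAAGTCCA (HNF4), TTGCGCAA (C/EBP), AATCGATA (ONECUT) and CAAGGTCA (NR5A2) matched in 0 of the 14 windows; over all 32851 windows they matched in 0.475%, 0.183%, 0.107% and 1.56%. TGTTTAC (FOXA) matched in 1 of 14, the Foxa1 window printed above, against 3.65% of all windows. The short ONECUT core ATTGAT matched in 2 of 14, the windows of the distal Hnf4a start and of the first Foxa2 start, against 7.54%. TTGCNNAA (C/EBP with a free centre) matched in 1 of 14, at a start of Nr5a2, against 10.8%. TTGCGCAA is a special case of TTGCNNAA, and these matches describe letters only.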

How the data were processed

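Total RNA of whole liver was measured in 12 mice, 6 per group. The authors deposited raw read counts per gene ID, per the labels from a stranded total RNA kit; the submitters' processing notes name GRCm38. Aligner, counter, annotation and use of strand: not given in the sources used here. All 12 sample files equalled their columns in the table of the series. RefSeq named 31049 IDs and GENCODE M21 78; the 5401 without a name held 2.19% of counts. No 2 replicates agreed within sampling noise (lowest chi-square per gene 49.4). Low counts were removed by filterByExpr and libraries scaled by TMM. The test was edgeR's robust quasi-likelihood fit (edgeR 4.0.16, R 4.3.3), with p-values adjusted over 16032 genes after Benjamini and Hochberg and a threshold of 0.05. The standard error is the log2 fold change divided by the square root of F. Ratios within a liver used counts plus 0.5 and an exact two-sided permutation test over 924 divisions. Exonic lengths came from GENCODE M21. Total counts ran from 43027778 to 70375852 per library.

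The fit was repeated with upper-quartile scaling, DESeq2 size factors, total counts alone, scaling without mitochondrial genes, DESeq2 1.42.0, limma-voom (limma 3.58.1) with quality weights, no filter, at least 50 counts in 6 libraries, each library's length slope as covariate, each library left out in turn, and oil replicate 5 and CCl4 replicate 6, where short transcripts weighed most, left out together. For ratios they were a prior count of 2, the length trend removed (lowess span 0.3) and the same libraries left out. The fit was tested on simulated counts. The 9 genes and all lists were chosen with earlier results of these data known. Named beside the 9 genes were up to 2 risen and 2 fallen genes per list, by smallest p. The 2 genes nearest in profile to each of the 9 were also named, as were genes that overlap a member. Some further list members were picked after their values were seen: Onecut2, Cyp7a1, Ttr and the further bile duct, lymphatic and intestinal markers. Results for some list members are not reported here.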

Additional observations from a re-analysis of the deposited data

Results flagged for a closer look

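Within the 6 livers of a group, 4 values stood apart from the rest: the gap to the nearest liver took a share of the range above Dixon's critical value, which chance passes in about 1 of 20 sets, and 34 sets of values were looked at. Cebpb was at 144.7 CPM in oil replicate 6, where the gap took 0.654 of the range. In the same liver the count of Cebpb was 0.751 times that of Cebpa (gap 0.647). Onecut1 was at 17.0 CPM in oil replicate 3 (gap 0.706). Hnf4aos was at 17.6 CPM in oil replicate 5 (gap 0.688), the oil library richest in short transcripts.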

How the results depend on the processing

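No paired analysis was possible because the labels give the 2 groups no shared replicate numbers. The sign of all 9 fold changes was the same in all 23 fits. All tested genes called numbered 5238 to 7514 over the fits with 1 library left out, and 6256 in the fit reported. The choice of scaling moved the median of all genes from 0.01 to 0.13 with upper-quartile scaling and 0.27 with total counts alone, and the share of rises among calls from 52.8% to 67.3% and 80.8%. With total counts alone 2 factors fell (Hnf4a and Foxa1) in place of 5. Foxa3 rose, and 1 factor was thus called risen in place of 0, with upper-quartile scaling (adjusted p = 0.0205), total counts alone (0.00771), limma-voom (0.00747), at least 50 counts in 6 libraries (0.0495) and without the short-transcript libraries (0.0234). Cebpa was lost with upper-quartile scaling (adjusted p = 0.149), total counts alone (0.449), limma-voom (0.0524), no filter (0.0622), the 50-count filter (0.0550) and without the short-transcript libraries (0.103). Cebpb passed with DESeq2 size factors (adjusted p = 0.0480), scaling without mitochondrial genes (0.0497), DESeq2 (0.0311), limma-voom (0.0288) and without the short-transcript libraries (0.0162). Prox1 passed with DESeq2 size factors (adjusted p = 0.0444), DESeq2 (0.0271) and limma-voom (0.0287). Onecut1 was lost with total counts alone (adjusted p = 0.0545) and in the length slope model (0.108), and Nr5a2 with total counts alone (0.146). The ratio of Prox1 to Hnf4a passed with the length trend removed (adjusted p = 0.00433). The cause of these changes was not tested.

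Leaving out 1 library at a time, 3 to 6 factors fell and 0 to 1 rose. Adjusted p then ran from 0.0160 to 0.0964 for Cebpa, 0.0153 to 0.125 for Cebpb, 0.0137 to 0.135 for Foxa3, 0.0169 to 0.140 for Prox1, 0.00844 to 0.0830 for Onecut1, 0.00351 to 0.0273 for Nr5a2, 0.000525 to 0.00331 for Foxa1, 0.000299 to 0.00219 for Hnf4a and 0.305 to 0.944 for Foxa2. For the ratios it ran from 0.0130 to 0.117 for Prox1/Hnf4a, 0.0260 to 0.208 for Nr5a2/Hnf4a, 0.00649 to 0.0130 for Foxa1/Foxa3 and for Foxa1/Foxa2, 0.104 to 0.491 for Foxa2/Foxa3 and 0.422 to 0.887 for Cebpb/Cebpa. The log2 difference of Cebpb/Cebpa changed sign without oil replicate 6 (0.13, adjusted p = 0.563). Of the 9 factors Onecut1 had the fewest reads, 31 to 725 per library.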

Other observations

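For each marker list here the shares over all tested genes are 20.6% risen and 18.4% fallen. Stellate cell and myofibroblast markers rose in 10 of 10 members, with sums of 231 to 374 CPM in oil and 810 to 1131 CPM in CCl4. Endothelial markers rose in 1 and fell in 1 of 8, and their sums overlapped (128 to 211 CPM in oil and 156 to 189 CPM in CCl4). Neutrophil markers rose in 1 of 6 tested members, near the share over all tested genes. Their sums were 13.4 to 49.7 CPM in oil and 17.3 to 49.2 CPM in CCl4. Intestinal epithelial markers, looked at because gut expresses Hnf4a and Hnf4g, rose in 2 of 4 tested members. Their sums were 41.0 to 79.5 CPM in oil and 36.2 to 113 CPM in CCl4, and Cdx1 had no counts in any library. Fabp2 made up most of the sum (means 53.4 and 55.8 CPM). Neither Fabp2 nor Lgals4 passed (edgeR adjusted p = 0.883 and 0.0858). The 2 that rose were low: Vil1 went from 0.230 to 0.432 CPM and Tff3 from 1.85 to 6.41 CPM (means). Of the 10 pancreatic acinar markers 2 were tested and neither passed, and Amy2a1 had no counts in any library.

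The promoters of the 9 factors differed in base composition. The 250 bases upstream of the Cebpb start held 81.6% G and C with 41 CG pairs, those of Onecut1 71.6% with 31, and those of Foxa1 62.0% with 21. Those of Cebpa held 66.4% with 22. The distal and proximal starts of Hnf4a held 51.2% and 57.6% with 3 and 4 CG pairs. The first start of Nr5a2 held 43.2% with 2, and its second start 49.6% with 6. The windows of Foxa2, Foxa3 and Prox1, which did not pass, are not listed. Over all 32851 RefSeq windows the medians were 52.4% and 6 pairs. The factors that fell thus stand on both sides of these medians.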
